A study of Homo sapiens with 10 samples.

Results

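The genes described here are 37 protein-coding genes of 10q26, the band at the end of the long arm of chromosome 10, in H9 cells, an established line of human embryonic stem cells. They are listed genes that start beyond 120 Mb of chromosome 10 in GRCh38, and they make up 37 of the 42335 gene symbols measured and 37 of the 160 measured symbols that start in that stretch. The members were chosen by their measured levels: the stretch was lower in 1 library, V1PAKI_d0, and not at later stages. The difference between V1PAKI and Ctrl at every stage is therefore a description here, without a test. The first member is WDR11 (chr10:120851175-120909524) and the last is MTG1 (chr10:133394094-133421307). The genes span from 4.69 kb to 547 kb each.

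Bulk RNA sequencing was done on 10 libraries, 5 of wild-type H9 cells (Ctrl) and 5 of H9 cells with the genotype SOX1-OT V1 PAKI (V1PAKI), a single library for each line at 5 stages. The d0 libraries are undifferentiated stem cells, and d4, d10, d16D and d16V are labelled as neural progenitor cells derived from them. In the protocol, embryoid bodies were grown without FGF-2, moved to neural medium on day 4 and attached on day 7, and cells meant for the ventral telencephalon received Sonic hedgehog and the agonist SAG from day 10. PAKI, D and V are not explained in the labels, which also do not say how many clones the V1PAKI line stands for. No stage has a replicate within a line, so a difference between the lines at 1 stage has no replicate error and no test. Values are FPKM, in which fragment counts are divided by transcript length and library size. The read depth behind them is unknown.

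As background, genes along a chromosome band need not share a function, and the members take part in many different processes. What neighbours share is their place on the same DNA molecule. Gene dosage means the number of copies of a gene in a cell, and RNA levels often follow it. DNA was not measured here, so the dosage of these genes was not tested, and the values below are RNA levels only.

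Several members also sit so close together that they share a start region or overlap. There were 3 head-to-head pairs, in which both genes start next to each other and are read outwards: IKZF5 with ACADSB (161 bases between them), UROS with BCCIP (260 bases) and DHX32 with FANK1 (102 bases). IKZF5 encodes an Ikaros family zinc finger factor and ACADSB an enzyme of isoleucine breakdown. Start windows were read from RefSeq (GRCh38.p14), from 250 bases before to 50 bases after the start of each gene. Over the 30 members with a RefSeq start window, the median was 36 CG dinucleotides, and 83.3% of the windows held at least 20. The same share was 71.8% of 10514 windows of genes measured at 1 FPKM or more in at least 2 libraries, so most start windows of active genes were rich in CG.

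At d0 nearly all measured members were lower in V1PAKI than in Ctrl. Of the 37 members, 33 reached 1 FPKM in at least 1 of both d0 libraries, and 31 of these lay below 0 on the scale of log2(FPKM + 1), which understates differences of genes with low values. The median difference, V1PAKI minus Ctrl, was -0.84, with quartiles of -1.01 and -0.69. A difference of at least 0.5 downwards was seen in 27 of the 33 and upwards in 0, where 3.92% of 13661 measured genes were that much lower and 17.9% that much higher. With TPM those background shares were 11.3% and 16.3%, and with median-of-ratios scaling 8.98% and 11.5%, while the members stood at 30 lower and 0 higher under both. A difference of at least 1 downwards was seen in 9 members, against 0.82% of all measured genes. Since the rule used this contrast, these counts describe the choice and support nothing by themselves. In bulk RNA, fewer cells of a kind and less RNA per cell cannot be told apart.

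In plain FPKM, the V1PAKI_d0 value of a measured member was 47.4% of its Ctrl_d0 value at the median, with quartiles of 43.3% and 57.9%. Among the 27 members that were lower by at least 0.5, the share lay between 37.1% and 60.1%. Over all measured genes the median share was 110% with quartiles of 89.9% and 141%. On the log2(FPKM + 1) scale, which makes differences smaller than these shares do, the median of the members stood 0.96 below that of all genes. The plot of the members' d0 values shows most points along the line of 1 to 2, over a range of levels from ECHS1 down to MGMT.

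**Figure D1:**
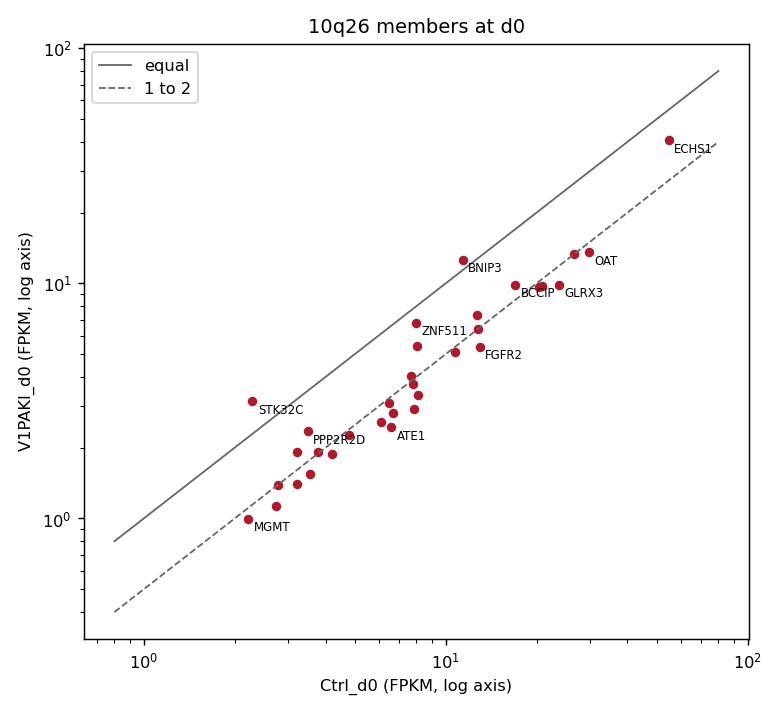
FPKM of each of the 33 measured members in V1PAKI_d0 (vertical, log axis) against Ctrl_d0 (horizontal, log axis), 1 point per gene, with lines for equal values and for a ratio of 1 to 2. Most members lie near the 1 to 2 line (median 47.4%), and BNIP3 and STK32C lie above the line of equal values.

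Among the members that act in cell division, MKI67, which encodes the proliferation antigen Ki-67, stood in Ctrl at 20.9, 17.6, 16.6, 30.1 and 28.7 FPKM at d0, d4, d10, d16D and d16V. In V1PAKI the MKI67 values were 9.72, 18.1, 23.4, 19.7 and 31.1 FPKM at the same stages. The d0 library of V1PAKI was the lowest of the 10, at 46.6% of Ctrl_d0, and from d4 on the lines overlapped. BUB3, a sensor of the spindle checkpoint, which holds back mitosis until the chromosomes are attached, was at 26.6, 18.7, 14.5, 14.7 and 14.9 FPKM in Ctrl. In V1PAKI BUB3 was at 13.3, 17.3, 21.3, 12.2 and 16.2 FPKM. Its highest value was thus in Ctrl_d0 and its V1PAKI_d0 value was the second lowest, above V1PAKI_d16D. BCCIP, a partner of BRCA2 and of the inhibitor CDKN1A, was at 16.99, 17.3, 11.2, 13.3 and 11.6 FPKM in Ctrl. The V1PAKI libraries had 9.87, 16.4, 14.5, 12.4 and 11.5 FPKM of BCCIP, the lowest again at d0. NSMCE4A, a subunit of the SMC5/6 complex that helps to repair and untangle DNA, was at 6.42 FPKM in V1PAKI_d0 and 12.8 in Ctrl_d0, and between 12.4 and 18.8 FPKM in the other 8 libraries. TACC2, a centrosomal protein, was at 1.13 against 2.74 FPKM at d0, and TUBGCP2, a subunit of the gamma-tubulin complex that seeds microtubules, at 5.43 against 8.03.

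Partners of these proteins outside 10q26 were listed to set beside them. For 14 genes of cell division the median d0 difference was -0.13, with 1 at least 0.5 lower and 1 that much higher. Of these genes 9 lay below 0, while all measured genes had a median of 0.11 with 37.8% below 0. Without TOP2A and BIRC5, the 2 beyond 40 Mb of chromosome 17, the median was -0.19, with 1 lower and 0 higher. TOP2A, a topoisomerase encoded on chromosome 17, was at 127 FPKM in V1PAKI_d0 and 107 in Ctrl_d0. CCNB1, a mitotic cyclin, was at 79.7 against 89.2 FPKM. BUB1B, a partner of BUB3 in the checkpoint, was at 36.9 against 45.4 FPKM, and CDC20, the protein the checkpoint restrains, at 75.6 against 59.8. TTK, a checkpoint kinase, was the lower one (14.4 against 22.0 FPKM, -0.58), and BIRC5, which lies on chromosome 17, the higher one (59.8 against 31.7 FPKM, 0.89). Of the 5 measured partners of NSMCE4A in the SMC5/6 complex, NSMCE1 was lower (2.02 against 4.16 FPKM, -0.77) and the median was -0.11. For the 6 partners of TUBGCP2 the median was 0.30, with 2 higher by at least 0.5, TUBG1 (50.1 against 18.6 FPKM) and TUBG2 (8.84 against 3.81), both on chromosome 17. Without those the median was 0.08.

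Of the members in signalling and transcription, FGFR2, a receptor tyrosine kinase for fibroblast growth factors, was at 12.9, 18.7, 28.0, 9.83 and 15.3 FPKM in Ctrl over the stages. V1PAKI had 5.39, 15.4, 18.03, 24 and 13.9 FPKM of FGFR2. Its lowest value was V1PAKI_d0, and at d16D the order was turned round, with V1PAKI higher. CTBP2, a corepressor of transcription, was at 20.4, 20.8, 14.7, 12.4 and 14.5 FPKM in Ctrl. In V1PAKI CTBP2 was at 9.68, 19.97, 16.98, 10.7 and 14.8 FPKM, lowest at d0. DOCK1, which activates the small GTPase RAC, was at 5.08 against 10.8 FPKM at d0, and INPP5A, a phosphatase that ends the inositol trisphosphate signal, at 4.02 against 7.69. WDR11, a WD-repeat protein of vesicle traffic, was at 3.72 against 7.81 FPKM, and FAM53B, a regulator of beta-catenin, at 1.93 against 3.21. At lower levels were PLEKHA1, a lipid-binding adaptor (1.38 against 2.78 FPKM), PPP2R2D, a subunit of a protein phosphatase (2.36 against 3.49), and ZRANB1, a deubiquitinase (1.93 against 3.76). IKZF5 was at 1.54 against 3.56 FPKM and its head-to-head neighbour ACADSB at 2.58 against 6.09, that is 0.84 and 0.99 lower on the log2 scale. DPYSL4, of the collapsin response mediator family of neurons, was at 3.34 against 8.12 FPKM.

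Among members of metabolism and the mitochondrion were those with the highest FPKM in Ctrl_d0. ECHS1, an enzyme of fatty acid and valine breakdown, was at 54.7, 71.0, 72.7, 59.9 and 53.5 FPKM in Ctrl and at 40.6, 73.2, 56.0, 66.7 and 54.5 in V1PAKI. Its V1PAKI_d0 value was the lowest of the 10 libraries, yet at 74.2% of Ctrl_d0 it lay outside the range of the members counted as lower. OAT, which turns ornithine into a precursor of proline and glutamate, was at 29.8, 25.5, 22.9, 11.4 and 13.9 FPKM in Ctrl. V1PAKI had 13.6, 31.7, 19.5, 21.8 and 9.20 FPKM of OAT, lower than Ctrl at d0 and higher at d4 and d16D. GLRX3, a glutaredoxin that handles iron-sulfur clusters, was at 23.7, 15.6, 15.3, 9.46 and 10.8 FPKM in Ctrl and at 9.88, 14.2, 19.9, 9.85 and 10.5 in V1PAKI. Its d0 difference of -1.18 was the largest of the measured members on the log2(FPKM + 1) scale. GLRX3 was also low at d16D in both lines, slightly below its V1PAKI_d0 value. UROS, a heme synthesis enzyme, was at 1.89 against 4.2 FPKM at d0, MTG1, a GTPase of the mitochondrial ribosome, at 3.10 against 6.48, and LHPP, a phosphatase, at 2.27 against 4.80.

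Other enzymes of these pathways are set against all measured genes, which had a median of 0.11 at d0 with 37.8% below 0. All 7 measured partners of UROS in heme synthesis lay above 0 (median 0.33, 0 at least 0.5 lower), among them ALAS1 (15.4 against 14.4 FPKM), CPOX (15.2 against 12.6) and UROD (14.2 against 10.8). Among 11 measured partners of ACADSB and ECHS1 in mitochondrial beta-oxidation the median was 0.13, with 0 at least 0.5 lower and 1 higher. HADHA was at 42.6 against 38.04 FPKM and ACAA2 at 25.6 against 26.6. Close relatives of the members elsewhere in the genome gave a median of 0.18 over 47 measured genes, with 0 at least 0.5 lower and 6 higher, where 17.9% of all genes were that much higher. FGFR1, a relative of FGFR2, was at 43.7 against 32.1 FPKM, and DHX15, a relative of DHX32, at 36.6 against 40.6. DPYSL3, a relative of DPYSL4, was at 105 against 128 FPKM, and CRMP1, of the same family, at 38.8 against 28.7.

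The remaining lower members were ATE1, which attaches arginine to proteins (2.45 against 6.60 FPKM), EDRF1, named for a role in red cell differentiation (2.93 against 7.83), DHX32, a helicase-like protein (2.81 against 6.68), and MGMT, which removes alkyl groups from guanine in DNA (0.999 against 2.22). HTRA1, a secreted protease (7.33 against 12.7), and CHST15, a sulfotransferase of chondroitin chains (1.40 against 3.22), complete them. Of the 6 measured members that were not at least 0.5 lower, TUBGCP2 (-0.49), ECHS1 (-0.42), PPP2R2D (-0.42) and ZNF511, a zinc finger gene (-0.20, 6.79 against 7.95 FPKM), still lay below 0. BNIP3, which marks mitochondria for removal and responds to low oxygen, was at 12.6 FPKM in V1PAKI_d0 and 11.4 in Ctrl_d0 (0.14). STK32C, a protein kinase, was at 3.15 against 2.29 FPKM (0.33). All 6 start beyond 130 Mb. The 4 members that stayed below 1 FPKM in both d0 libraries were FANK1, ADAM12, PTPRE and PAOX, and no direction was read from them at d0. In the head-to-head pair of DHX32 and FANK1 only the former was thus measured, at 6.68 FPKM in Ctrl_d0 against 0.116 for FANK1. The strand treatment of the counting is not given. Reads of the overlapping pairs ZRANB1 and CTBP2, BCCIP and DHX32, and TUBGCP2 and ZNF511 therefore cannot be told apart with certainty, and without these 6 genes 23 of 27 members were at least 0.5 lower.

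Over all 10 libraries, 26 of the 37 members had their lowest value in V1PAKI_d0, a library that held the lowest value of 6.06% of all genes. In 31 members the V1PAKI_d0 value lay below each of the 5 Ctrl libraries, a count for which no share over all genes was taken. Both counts use the library that chose the members and include ADAM12 (0.0205 FPKM in V1PAKI_d0), and the second also includes PAOX (0.467). Each library was also set against the gene's own median over the 10. The 36 members with 1 FPKM in at least 2 libraries lay 0.70 below that median in V1PAKI_d0 (quartiles -0.92 and -0.49), and 34 of 36 were below it. In the other 9 libraries the median of the members lay between -0.02 and 0.14, Ctrl_d0 among them at 0.03. All genes had a median of 0.02 in V1PAKI_d0 and -0.07 in Ctrl_d0. Against all genes, the members were 0.72 lower in V1PAKI_d0 and 0.10 higher in Ctrl_d0. With Ctrl_d4 in place of Ctrl_d0 as the reference, 30 of 34 measured members were at least 0.5 lower in V1PAKI_d0, and with V1PAKI_d4 25 of 32 were, where about 10% of all genes were (10.1% in each).

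**Figure D2:**
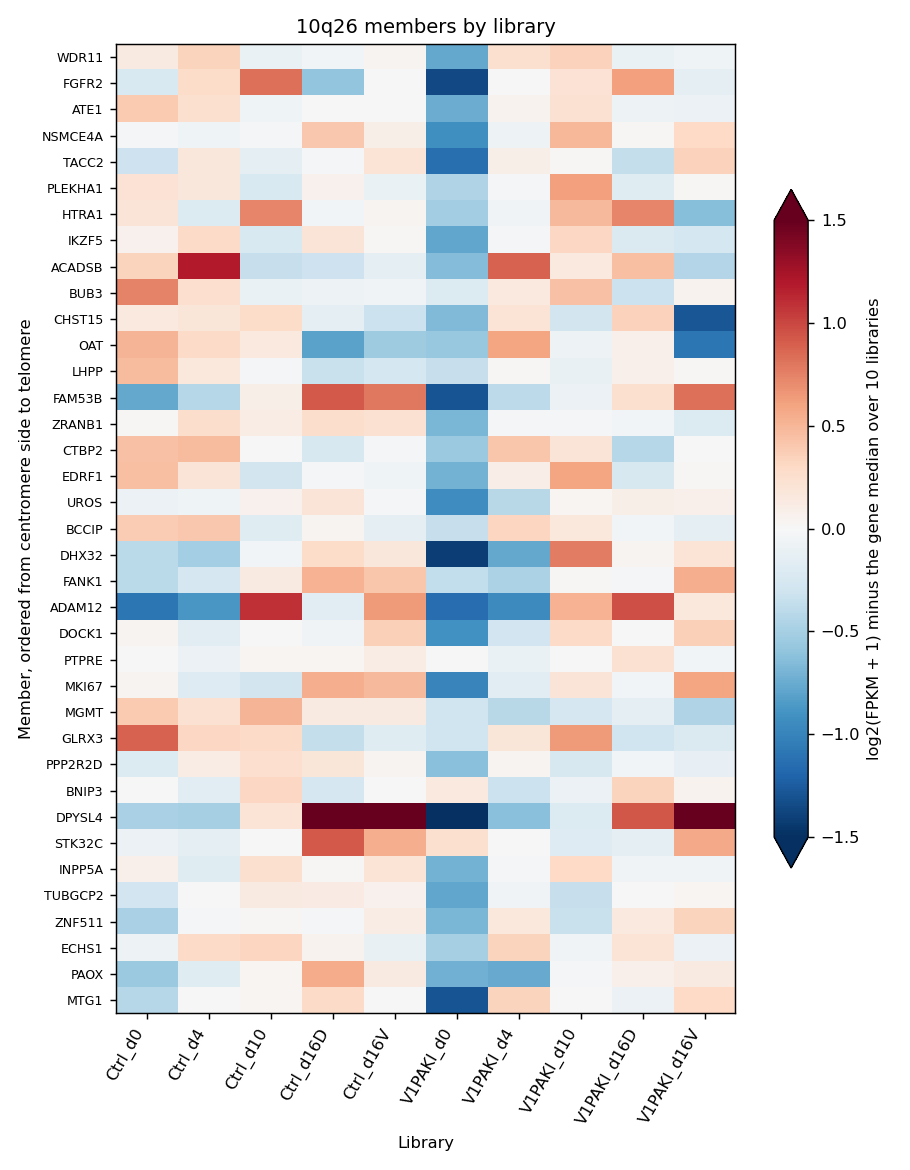
Each row is 1 of the 37 members, ordered along the chromosome from the centromere side to the telomere, and each column is 1 library. Colour gives log2(FPKM + 1) minus the gene's median over the 10 libraries, with values beyond the scale drawn in its end colours, and the V1PAKI_d0 column is blue in nearly all rows (34 of 36 testable members below their median).

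Along chromosome 10 the lower values began abruptly. The last 4 measured genes before 120 Mb were BAG3, a chaperone partner (7.69 FPKM in V1PAKI_d0 against 4.70 in Ctrl_d0), INPP5F, a phosphoinositide phosphatase (12.7 against 12.6), MCMBP, which binds the replicative helicase (20.9 against 21.5), and SEC23IP, of the secretory pathway (12.9 against 12.4). Their log2 differences were 0.61, 0.01, -0.04 and 0.05. The first 4 members beyond it, WDR11, FGFR2, ATE1 and NSMCE4A, stood at -0.90, -1.13, -1.14 and -0.89. SEC23IP ends at 119944658 and WDR11 starts 907 kb further on. Between them only RPL21P16 was measured at 1 FPKM or more, a processed pseudogene whose reads may come from its parent gene or other copies, and it was higher in V1PAKI_d0 (12.0 against 6.51 FPKM). The 22 measured genes of the last 5 Mb before 120 Mb had a median of 0.00, and the 442 of the rest of chromosome 10 a median of 0.02, with 13 at least 0.5 lower.

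**Figure D3:**
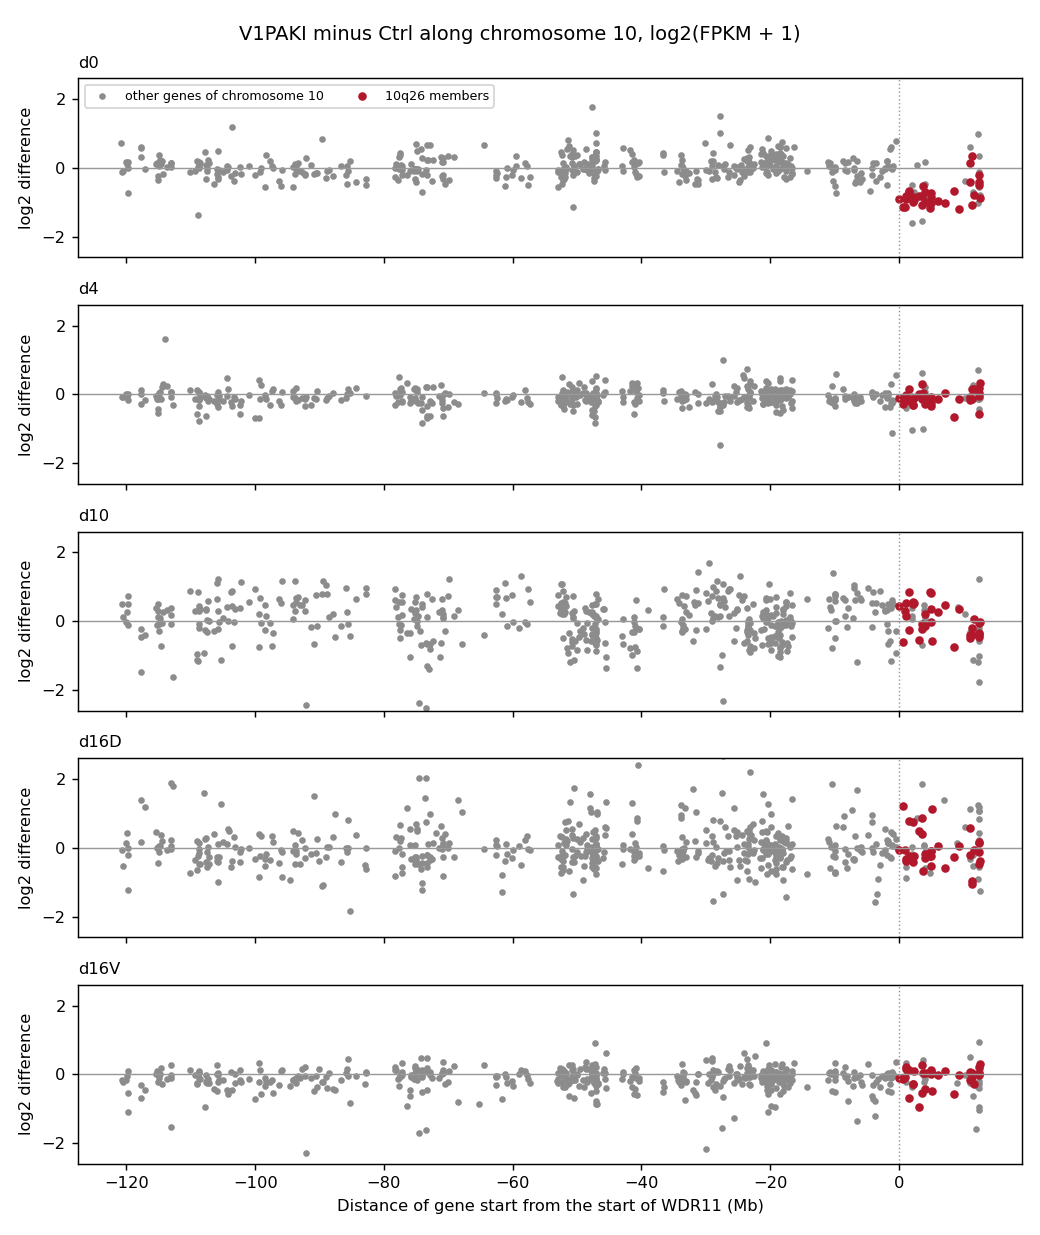
Log2 difference of FPKM + 1, V1PAKI minus Ctrl, of each measured gene of chromosome 10 against the distance of its start from that of WDR11 in Mb, 1 panel per stage, with members in red and other genes in grey (3 points lie beyond the vertical axis). At d0 the points step down at 0 Mb (member median -0.84) and become mixed beyond 130 Mb of the chromosome, where 45% of 20 genes were at least 0.5 lower and 75% below 0, and in the other 4 panels no step is seen at that place.

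Most measured genes of the stretch that are not members were also lower at d0. Of 123 such symbols 20 were measured, with a median of -0.52, and 14 lay below 0, 10 of them by at least 0.5, while 3 were at least 0.5 higher. Of the 15 protein-coding ones among them 10 were at least 0.5 lower (median -0.70). CUZD1 (1.16 against 5.51 FPKM), NKX1-2, a homeobox gene (3.35 against 11.6), and ABRAXAS2, of a deubiquitinating complex (3.29 against 6.93), were among the lower ones. The 3 higher ones were UTF1, a gene of undifferentiated stem cells (6.44 against 2.76 FPKM, 0.99), RPL21P16 (0.80) and the antisense gene AL162274.2 (1.39 against 0.553 FPKM, 0.62). Within the stretch the difference was smaller towards the telomere as deposited: 23 measured members of the first 10 Mb had a median of -0.89, and the 10 beyond 130 Mb one of -0.46. The latter have transcripts of higher GC content, with a median of 57.7% against 43.0%. When a trend on GC content and transcript length was removed, the medians were -0.85 and -0.70, and 6 of the 10 were at least 0.5 lower instead of 4. What makes up the remaining gap was not tested.

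Seen over the genome in windows of 10 Mb, the window from 120 to 130 Mb of chromosome 10 had the lowest median at d0 of 293 windows (-0.84, 33 genes of any kind, 84.8% at least 0.5 lower), and the next window, to the end of the chromosome, the second lowest (-0.46, 20 genes). The lowest of the other 291 windows stood at -0.27 (80 to 90 Mb of chromosome 8). The stretch was chosen by this contrast, so its low rank at d0 describes the choice. At the other end the 5 windows from 40 Mb of chromosome 17 onwards were the 5 highest, with medians between 0.54 and 0.76. Both extremes thus came from the d0 comparison, and whether they are linked was not tested. At the later stages the first 10q26 window ranked 72 of 290 at d4, 138 of 291 at d10, 134 of 294 at d16D and 241 of 292 at d16V, counted from the lowest. The second ranked 135, 23, 161 and 114, and so lay toward the low end at d10 (median -0.35). Outside 10q26, window medians at d10 reached -0.68 (0 to 10 Mb of chromosome 19, 212 genes) and 0.73 (120 to 130 Mb of chromosome X, 17 genes).

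**Figure D4:**
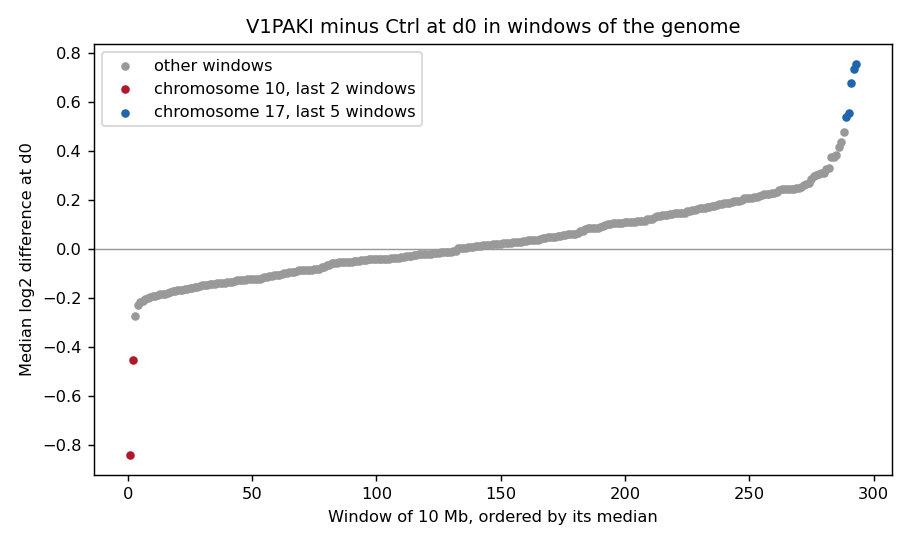
Median log2 difference, V1PAKI minus Ctrl at d0, of the measured genes in each of 293 windows of 10 Mb (vertical), with windows ordered by that median (horizontal). The last 2 windows of chromosome 10 (red) are the lowest at -0.84 and -0.46, and the last 5 windows of chromosome 17 (blue) are the highest.

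From d4 on the medians of the members lay close to 0. At d4 their median difference was -0.09 over 34 measured members, with 2 at least 0.5 lower (MGMT at -0.64 and PAOX at -0.57) and 0 higher, where 4.47% of all genes were lower and 3.37% higher. At the cutoff of 1, 0 members were lower at d4 (0.857% of all genes), 0 at d10 (7.45%), 1 at d16D (STK32C, 3.46%) and 0 at d16V (2.49%). At d10 the median was -0.03 over 35, with 4 lower and 7 higher against 24.9% and 19.9% of all genes. At d16D the median was -0.16 over 36, with 5 lower and 6 higher against 17.9% and 13.6%, and 3 lower and 7 higher with median-of-ratios scaling. At d16V it was -0.00 over 36, with 4 lower and 0 higher against 9.17% and 2.59%. At d10 the whole transcriptome differed more between the lines, and members of the first 10 Mb (median 0.24) and those beyond 130 Mb (median -0.35) differed in direction. With the GC and length trend removed these medians were 0.07 and 0.25, so that their direction at d10 depended on this adjustment.

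Some members stood apart at later stages, each value being 1 library. MGMT was lower in V1PAKI at all 5 stages, at 0.999, 0.844, 1.06, 1.24 and 0.80 FPKM against 2.22, 1.88, 2.50, 1.70 and 1.69 in Ctrl. The ranges of the lines did not overlap, and the share of all genes for which this holds was not taken. For MGMT the V1PAKI values lie near the filter of 1 FPKM, and its d0 direction came with the choice. Over d4 to d16V its mean log2 difference was -0.56 (SD 0.21, n = 4 stages, which are not replicates). Of 33 members measured at every stage 5 were below 0 at all 5 stages (ZRANB1, MGMT, PPP2R2D, DPYSL4 and TUBGCP2), where 2.32% of 11702 genes were, but the d0 direction of the members was fixed by their choice. DPYSL4 was lower in V1PAKI at d16D (23.3 against 46.8 FPKM) and close to Ctrl at d16V (37.5 against 40.01). STK32C was lower at d16D as well (2.18 against 5.62 FPKM).

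FGFR2, HTRA1, CHST15, OAT and ADAM12, a metalloprotease of mesenchyme and muscle, were lower in V1PAKI at d10, higher at d16D and lower at d16V. They were 5 of 35 measured members, and 17.6% of all genes had that order of signs, so the count is near the background. At d10 ADAM12 was at 2.22 FPKM in V1PAKI against 3.81 in Ctrl, at d16D it was at 3.39 against 1.01, and at d16V at 1.51 against 2.50. HTRA1 was at 15.7 against 18.9, 18.9 against 10.6 and 6.68 against 11.4 FPKM. CHST15 was at 2.13 against 3.60, 3.83 against 2.42 and 0.564 against 2.04 FPKM. The summed level of 7 mesenchyme and fibroblast markers moved the same way, at d10 with 171 FPKM in V1PAKI against 687 in Ctrl, at d16D with 1012 against 158, and at d16V with 9.99 against 267. The summed level of 10 mesoderm and endoderm markers was 65.1 against 324, 1425 against 246 and 17.6 against 167 FPKM. For 7 amnion and trophoblast markers, the sum had the same order, at 131 against 477, 211 against 25.9 and 8.79 against 58.4 FPKM. HAND1 is on both of these lists (223 FPKM in Ctrl_d10, 134 in V1PAKI_d16D), so the sums are not separate. HAND1 and IGFBP3 made up most of the amnion and trophoblast sum. CGA went the other way at d16D, below 1 FPKM in both lines (0.042 in V1PAKI against 0.646 in Ctrl). The 9 pluripotency markers summed to 768 against 842, 315 against 276 and 541 against 469 FPKM. At d16V most of that sum was SOX2 (246 against 206 FPKM) and LIN28A (212 against 166). Of the 8 measured there, 5 lay below 0, with 3 at least 0.5 lower and 0 that much higher. The 7 neural progenitor markers summed to 132 against 81.7, 156 against 399 and 158 against 202 FPKM. All 7 reached 1 FPKM in Ctrl at these stages, and 4, 7 and 7 did in V1PAKI. At d10, 2 of them were at least 0.5 lower in V1PAKI and 2 that much higher. All 7 mesenchyme and fibroblast markers reached 1 FPKM in Ctrl at these 3 stages, and 6, 7 and 4 of them did in V1PAKI. Of the mesoderm and endoderm markers, 10, 5 and 6 of 10 reached it in Ctrl and 4, 10 and 2 in V1PAKI, with SOX17 listed at 0 in V1PAKI_d16V. Of the amnion and trophoblast markers, 7, 3 and 3 of 7 reached it in Ctrl and 6, 6 and 1 in V1PAKI, with CGA listed at 0 in Ctrl_d16V and CDX2 in V1PAKI_d16V. The part of such cells in these values was not tested.

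**Figure D5:**
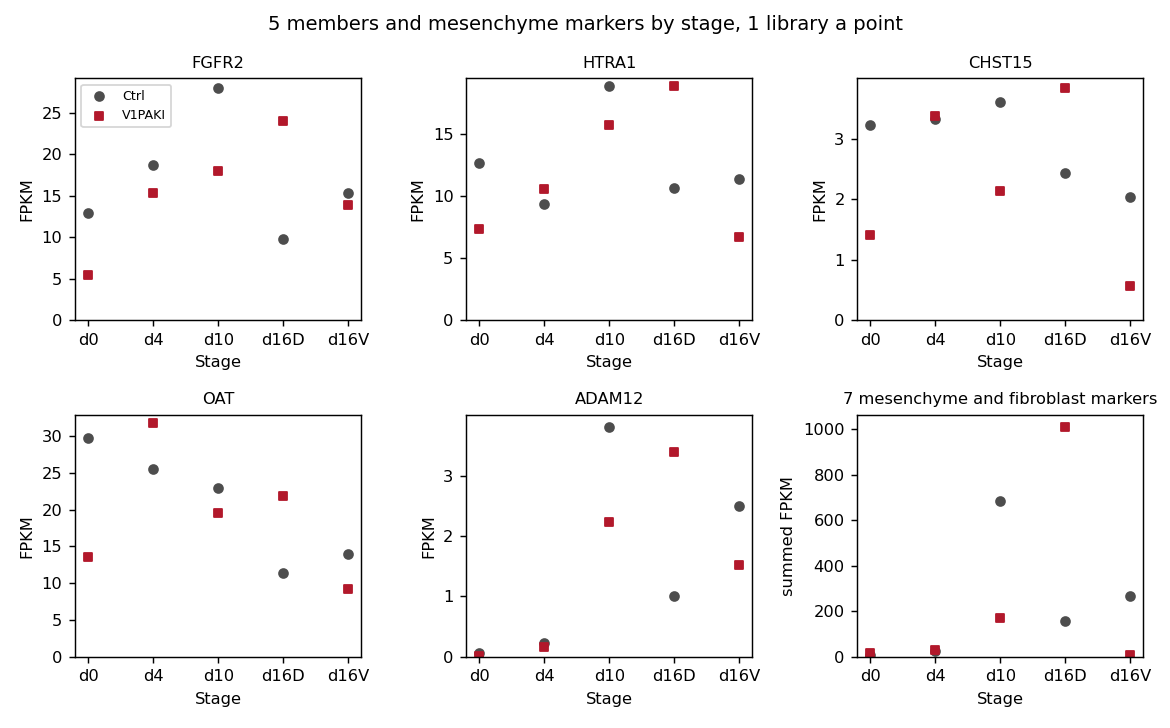
FPKM of FGFR2, HTRA1, CHST15, OAT and ADAM12, and the summed FPKM of 7 mesenchyme and fibroblast markers, at each stage in Ctrl (circles) and V1PAKI (squares), 1 library per point and vertical axes from 0. The 5 genes were picked for being lower in V1PAKI at d10, higher at d16D and lower at d16V (5 of 35 members, 17.6% of all genes), so that order is given by the choice, and the marker sum has the same order.

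Changes between stages, averaged over both lines, were tested with limma over all 15779 genes that reached 1 FPKM in at least 2 libraries, of which 36 were members. The change from d0 to d4 uses V1PAKI_d0, the library that chose the members, and is a description for them. No member passed an adjusted p of 0.05 in any of the 4 changes. Among all genes 0.507% rose and 0.311% fell from d0 to d4, 0.919% and 0.52% from d4 to d10, 0.551% and 0.38% from d10 to d16D, and 0.52% and 0.292% from d10 to d16V. At an unadjusted p below 0.05 there were 8 members from d0 to d4, all upwards, and 2 upwards and 1 downwards in each of the other changes. Over all genes 6.26% were up and 5.59% down at that threshold from d0 to d4, 7.81% and 7.38% from d4 to d10, 9.49% and 7.48% from d10 to d16D, and 10.9% and 9.02% from d10 to d16V. The 8 became 1 without V1PAKI_d0, 1 without V1PAKI_d4, 3 without Ctrl_d4 and 19 without Ctrl_d0. The closest was DPYSL4, with a log2 change of 1.64 from d10 to d16V (SE 0.29, limma adjusted p = 0.0533) and 1.42 to d16D (SE 0.29, adjusted p = 0.0819), higher in both lines each time. ADAM12 stood at 1.73 from d4 to d10 (SE 0.39, limma adjusted p = 0.0805), higher in both lines as well, and passed with TPM (limma adjusted p = 0.0499) and without the genotype term (0.0471). From d0 to d4 the lines differed: the median change of the members was 0.71 in V1PAKI and 0.02 in Ctrl, while over all genes it was -0.08 and 0.08. The spread of each member in this fit includes its d0 difference between the lines, and without both d0 libraries 0 members passed in the 3 changes that could still be fitted.

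The d0 libraries were checked against markers of their label. All 9 pluripotency markers were above 1 FPKM in both, with sums of 1414 FPKM in V1PAKI_d0 and 1588 in Ctrl_d0, and NANOG stood at 16.2 and 16.4, though 3 of the 9 were at least 0.5 lower in V1PAKI_d0 and 1 higher. Summed markers of mesoderm and endoderm were at 1.68 and 0.635 FPKM, those of amnion and trophoblast at 3.53 and 2.97, and those of mesenchyme at 15.3 and 8.46, with COL3A1 and LUM listed at 0 in both. Most of the mesenchyme sum was COL1A1, a gene of chromosome 17, at 14.3 FPKM in V1PAKI_d0 and 7.64 in Ctrl_d0. It was the only mesenchyme marker that reached 1 FPKM in either library. The part of such cells in the d0 values was not tested. Of the neural markers, PAX6 and HES5 were listed at 0 in both. SOX1-OT, the transcript named in the genotype, was listed at 0 FPKM in both d0 libraries, so it does not check the genotype label at that stage. At d16D it was at 0.212 FPKM in V1PAKI and 1.87 in Ctrl. ZNF558 and ZNF542P were listed at 0 in all 5 V1PAKI libraries, V1PAKI_d0 included, and lay between 1.89 and 3.91 FPKM in Ctrl, and ZNF619 was at 0.184 FPKM in V1PAKI_d0 against 1.91 in Ctrl_d0.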

How the data were processed

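Per the labels' protocols, Trizol was used to extract RNA and a TruSeq kit for the libraries. The tools named are cutadapt 1.18, HISAT2 2.1.0 and Cufflinks with build GRCh38, per the submitters' processing notes. The authors deposited FPKM values for 42335 symbols in 10 libraries. The annotation, strand setting and depth were not given in the sources used here. FPKM summed to between 200509 and 256270 per library. Each column name matches 1 sample title.

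Differences are on the log2(FPKM + 1) scale. At each stage V1PAKI minus Ctrl was described over genes reaching 1 FPKM in 1 or both libraries, with 0.5 and 1 as cutoffs. Positions came from GENCODE 29 on GRCh38, and windows of 10 Mb with at least 10 genes were used. Changes between stages came from limma 3.58.1 under R 4.3.3 (stage and genotype as terms, intensity trend, two-sided, Benjamini-Hochberg over 15779 genes, 4 residual degrees of freedom, 7.77 after moderation), and the fit was first tested on simulated data. Nothing in the labels marks separate cultures, so these p-values measure the spread between lines and stages. The members and lists were chosen with earlier results of these data known. Genes named are the 37 members, with every library given for the 8 highest in Ctrl_d0, the 4 measured genes on each side of 120 Mb, up to 4 genes of each partner list with the highest Ctrl_d0 levels, and check genes. Names outside this rule, such as TTK, BIRC5, TUBG2 and the non-members of the stretch, were chosen after their values were seen. The 6 partner and 5 marker lists were described by counts and medians. Alternatives were other scalings, pseudocounts, filters, cutoffs and windows, a GC and length trend (cubic in GC content, quadratic in log length, longest transcript), and left-out libraries. Start window sequences and 1 partner gene's values are not reported here.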

Additional observations from a re-analysis of the deposited data

How the results depend on the processing

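The count of 27 lower members of 33 at d0 was 30 of 33 under both scalings and 29 of 33 with a pseudocount of 0.1. It was 18 of 22 with a filter at 5 FPKM and 27 of 37 with no filter. References chosen after seeing the data gave 30 of 34 (Ctrl_d4) and 25 of 32 (V1PAKI_d4), and leaving out the overlapping members gave 23 of 27. It became 9 at a cutoff of 1. The d0 median of -0.84 was -1.16 with TPM, -0.98 with median-of-ratios scaling, -1.05 with a pseudocount of 0.1, -0.82 with no filter, -0.95 with a filter at 5 FPKM and -0.85 with the GC and length trend removed, and the cause of these shifts was not tested. Both scalings moved the d0 median of all genes (0.11) by -0.13 (TPM) and -0.16 (median-of-ratios). The gap of V1PAKI_d0 to the other libraries (-0.72 against all genes) was -0.96 with TPM and -0.92 with a pseudocount of 0.1. The window from 120 Mb ranked 1 from the lowest in all 4 alternatives tried. With windows of 5 Mb, the one from 130 Mb ranked 3 of 434 at d0.

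At a cutoff of 1 the lower members were 0 at d4, 0 at d10, 1 at d16D and 0 at d16V. A filter at 5 FPKM gave 0 at d4, 1 at d10 and 2 at d16V, where fewer members are tested, and median-of-ratios scaling gave 3 at d16D and 2 at d16V. In the stage changes, 1 member, ADAM12, passed from d4 to d10 with TPM and 1, again ADAM12, without the genotype term, and the cause was not tested. Leaving out 1 library of the stages compared gave 0 members each time, but calls over all genes, 128 to 227 in the 4 changes, then ranged from 0 to 340. The stage fit compares stages within each line through its genotype term, and the samples carry no replicate number for a further block. FPKM without counts leaves depth unknown, so in the main setting no direction was read at a stage for members below 1 FPKM in both lines. Such members still entered the comparison over all 10 libraries.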
